A study of Mus musculus with 3 samples.

Results

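The genes described here carry glucose into heart cells, split it to pyruvate, interconvert pyruvate and lactate, move lactate across the plasma membrane and pass pyruvate to the mitochondria. They were taken by gene symbol from a list of 34 members, and all 34 were among the 16587 genes of the deposited count table. The study measured poly(A) RNA by sequencing in 3 libraries from hearts of wild-type (WT) male mice aged 12 weeks. The libraries form a single group, so the comparisons are between isozymes inside each library and between the libraries of that group. The strain is not given in the sources used here. Nothing in the labels says whether each library is a different animal, so p-values measure only the spread between these libraries, which may be technical. The RNA is from bulk heart tissue, in which fewer cells of a type and less RNA per cell cannot be told apart.

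Glycolysis turns glucose into pyruvate, and most of its steps can be run by several isozymes, enzymes of the same reaction encoded by different genes that differ in kinetics and in the tissues that make them. Heart muscle takes most of its energy from fatty acids and also burns glucose and lactate. Its glucose enters mainly through the insulin-responsive transporter GLUT4 (Slc2a4) and the constitutive transporter GLUT1 (Slc2a1). The H-type lactate dehydrogenase subunit (Ldhb) is classically the heart form and the M-type subunit (Ldha) the skeletal muscle and liver form.

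Libraries 1, 2 and 3 held 25311388, 26398140 and 24914479 counts. Levels are given as CPM, the counts of a gene per 1000000 counts of its library. The limit that a count of 0 allows is 3 counts, equal to 0.114 to 0.120 CPM, which covers counting error only. The labelled tissue was checked with heart muscle markers, and all 6 (Myh6, Tnnt2, Tnni3, Actc1, Myl2 and Pln) were detected, with a summed level of 67474 to 71187 CPM. Of 5 skeletal muscle markers 3 were detected, Acta1 and Ckm, which heart muscle also expresses, and Tnni2 at 2.13 ± 0.0753 CPM (SD, n = 3). The fast-fibre genes Tnnt3, at 0.435 to 0.568 CPM, and Mylpf, at 0.830 to 1.28 CPM, did not reach 1 CPM in every library. Erythroid markers summed to 2223, 1049 and 1698 CPM in libraries 1, 2 and 3, and 5 of the 6 differed between the libraries (edgeR adjusted p under the threshold of 0.05, adjusted over all genes tested).

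Sequences upstream of the starts are shown for 3 steps in which one isozyme took most of the counts, because the genes of a step differ there in their CpG content. The 250 bases before the annotated start come from RefSeq on build GRCm38.p6, whereas the submitters' processing notes name GRCm39 for the counts, and only the upstream-most start of Ldha, which has several, is shown. They run 5′ to 3′ on the strand of the gene, and capitals mark each CpG, the dinucleotide that DNA methylation acts on.
Pgam2 (chr11:5803797-5804046, minus strand): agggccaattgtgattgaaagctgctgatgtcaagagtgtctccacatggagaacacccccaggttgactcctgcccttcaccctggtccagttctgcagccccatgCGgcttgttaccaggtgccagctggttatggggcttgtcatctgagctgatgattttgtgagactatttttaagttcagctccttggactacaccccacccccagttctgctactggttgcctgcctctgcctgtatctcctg
Pgam1 (chr19:41911621-41911870, plus strand): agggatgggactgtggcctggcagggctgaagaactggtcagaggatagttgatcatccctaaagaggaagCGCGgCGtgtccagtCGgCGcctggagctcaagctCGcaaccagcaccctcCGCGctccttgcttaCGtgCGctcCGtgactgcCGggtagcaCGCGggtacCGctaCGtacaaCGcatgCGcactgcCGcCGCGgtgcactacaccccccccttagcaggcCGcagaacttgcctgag
Eno3 (chr11:70656926-70657175, plus strand): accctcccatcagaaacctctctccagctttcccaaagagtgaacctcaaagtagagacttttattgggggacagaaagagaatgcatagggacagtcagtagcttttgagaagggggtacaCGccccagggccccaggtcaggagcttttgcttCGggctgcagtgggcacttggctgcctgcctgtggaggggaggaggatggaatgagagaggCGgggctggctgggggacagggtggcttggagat
Eno2 (chr6:124769674-124769923, minus strand): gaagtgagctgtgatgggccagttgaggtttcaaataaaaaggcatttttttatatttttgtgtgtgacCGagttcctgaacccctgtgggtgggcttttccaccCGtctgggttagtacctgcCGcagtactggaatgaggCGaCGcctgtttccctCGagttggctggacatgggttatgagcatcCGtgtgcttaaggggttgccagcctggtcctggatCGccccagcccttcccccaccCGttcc
Ldhb (chr6:142507958-142508207, minus strand): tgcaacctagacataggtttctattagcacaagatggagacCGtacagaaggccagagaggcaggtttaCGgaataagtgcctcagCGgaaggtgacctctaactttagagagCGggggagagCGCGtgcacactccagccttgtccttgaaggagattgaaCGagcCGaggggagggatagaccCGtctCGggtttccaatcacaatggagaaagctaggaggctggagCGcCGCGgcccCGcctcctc
Ldha (chr7:46845554-46845803, plus strand): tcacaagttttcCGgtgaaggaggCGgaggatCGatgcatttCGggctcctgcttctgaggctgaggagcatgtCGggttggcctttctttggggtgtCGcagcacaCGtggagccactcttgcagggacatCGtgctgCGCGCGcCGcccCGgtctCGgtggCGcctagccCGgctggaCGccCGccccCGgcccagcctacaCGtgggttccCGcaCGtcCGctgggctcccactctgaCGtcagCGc

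The window of Pgam2, the muscle phosphoglycerate mutase, held 1 CpG, and that of Pgam1, the mutase of most other tissues, held 22. The window of Eno3, the muscle enolase, held 3, and those of Eno2, the neuronal enolase, and of Eno1, the enolase of most tissues, held 9 and 9 to 21 over its 3 starts. The median of all 32851 windows in the table was 6 CpG, 37.8% of them held 3 or fewer, and 17.9% held 20 or more. A low CpG count did not mark the leading isozyme in every step. The window of Ldhb held 14 CpG against 25 for the upstream start of Ldha and 9 for its other start, and the leading lactate transporter gene Slc16a1 held 37 against 29 for Slc16a3. The E-box letters CANNTG, which read the same on both strands, occurred 5 times in the Pgam2 window and 0 times in the Pgam1 window. They occurred 1 time before Eno3 and 1 time before Eno2, and 66.2% of all windows held at least 1. The letters ACGTG on either strand, which are found in hypoxia response elements, occurred 3 times at the upstream start of Ldha. They occurred 0 times at its other start and 0 times before Ldhb, and 16.6% of all windows held at least 1. Of the 34 members 31 had a window in the table. Slc2a3, Slc2a4 and Slc16a7 had none.

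**Figure D1:**
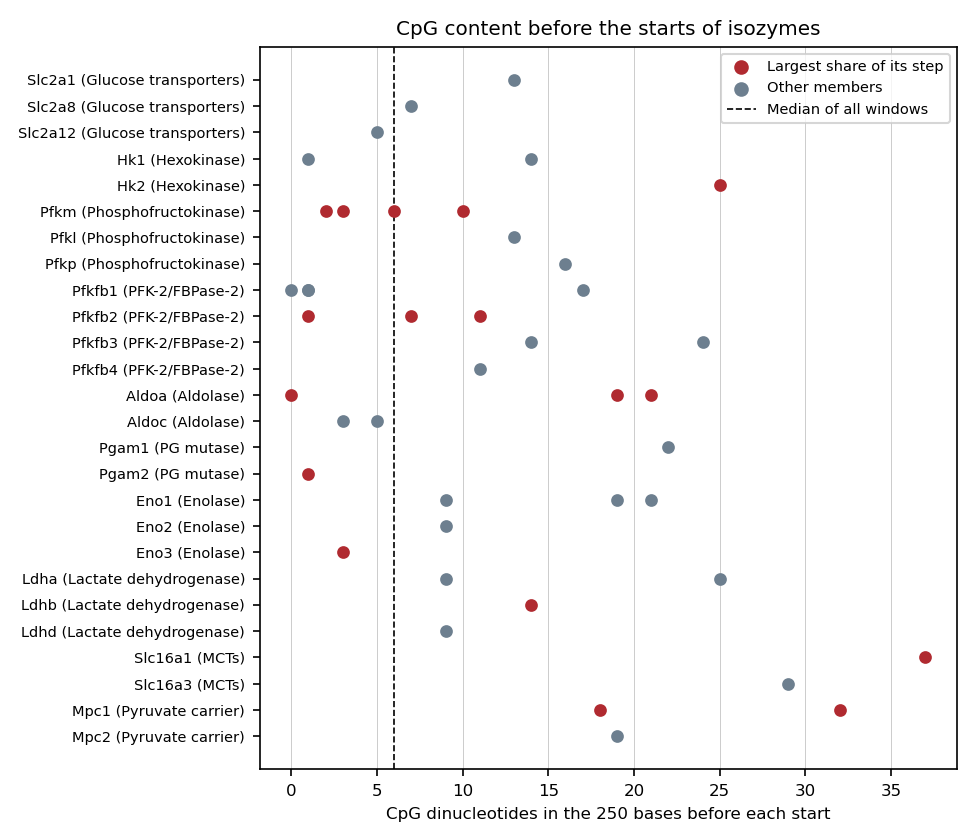
CpG dinucleotides in the 250 bases before each RefSeq start (x axis, count) for the members of steps with more than 1 gene, one point per start, with the member of the largest share of its step in red and the others in grey. Pgam2 (1 CpG) and Eno3 (3) lie left of the median of all windows at 6, whereas Slc16a1 (37) and Hk2 (25) lie far to the right.

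A total of 32 of the 34 members reached 1 CPM in every library, against 71.3% of all genes in the table. The exceptions were Aldoc, the brain-type aldolase, with 16, 2 and 4 counts in libraries 1, 2 and 3, and the neuronal enolase Eno2, with 46, 22 and 21 counts. Together the 34 members took 1.65 ± 0.0507% of all counts (SD, n = 3). In TPM (transcripts per 1000000), which divides counts by the length of the principal annotated transcript, Aldoa ranked 19, Ldhb 32, Eno3 74 and Pgam2 88 among all genes with a length. CPM values are not corrected for length and serve to compare 1 gene between libraries, so they give no order of genes. Length is a choice here, and ratios between genes are given per kilobase of the union of annotated exons, with the range over this and 3 other length measures (longest transcript, principal transcript, and coding sequence).

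**Figure D2:**
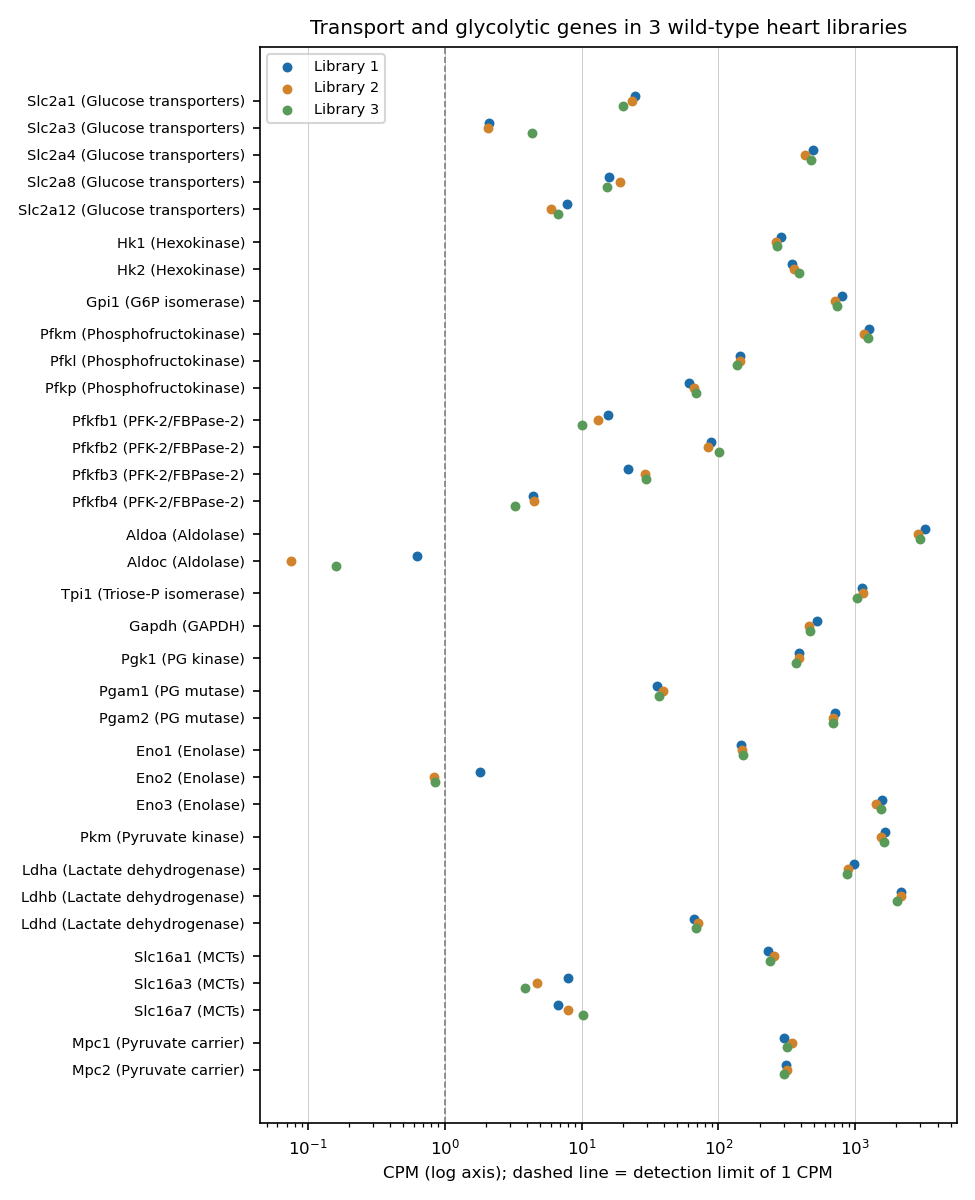
Level of each of the 34 members in CPM (x axis, log scale) in libraries 1, 2 and 3, one point per library, ordered by step from glucose transport at the top to pyruvate transport at the bottom. Aldoa and Ldhb lie at 2020 CPM or above in every library, and Aldoc and, in libraries 2 and 3, Eno2 lie below the dashed detection limit of 1 CPM.

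Slc2a4, which encodes GLUT4, stood at 492, 433 and 475 CPM in libraries 1, 2 and 3. Slc2a1 stood at 24.7, 23.3 and 20.2 CPM. Inside each library GLUT4 transcripts took 90.9%, 89.7% and 91.5% of the counts per kilobase of the 5 glucose transporters. Slc2a4 exceeded Slc2a1 by a log2 ratio of 4.37 ± 0.17 (SD, n = 3), and the 4 length measures gave 4.31 to 4.73. Slc2a8, which encodes the intracellular transporter GLUT8, was at 16.0, 19.2 and 15.3 CPM. Its difference from Slc2a1 missed the threshold, at a log2 ratio of Slc2a1 to Slc2a8 of 0.31 with a 95% interval of -0.037 to 0.65 (limma adjusted p = 0.0745, adjusted over the 31 pairs compared). By coding sequence the ratio was 0.39 (limma adjusted p = 0.0359) and by principal transcript -0.19 (limma adjusted p = 0.218). Slc2a12 (GLUT12, another insulin-sensitive transporter) had 7.82, 5.95 and 6.70 CPM, and per kilobase of exon union Slc2a1 exceeded it by 2.01 ± 0.20 on the log2 scale. Per length the lowest of the 5 was Slc2a3, the high-affinity transporter of neurons and of blood cells, with 2.09, 2.08 and 4.33 CPM. In log2 terms Slc2a1 exceeded it by 4.59, 4.52 and 3.26 in libraries 1, 2 and 3, so library 3 stood apart, with 108 counts of Slc2a3 against 53 and 55 in libraries 1 and 2. Slc2a3 was not called as differing between the libraries (edgeR adjusted p = 0.999 over all genes tested). Several marker lists were, like Slc2a3, highest in library 3. Mesothelial markers summed to 0.0790, 0 and 15.7 CPM in libraries 1, 2 and 3 (4 of 4 highest in library 3), adipocyte markers to 1.30, 1.06 and 2.65 CPM (5 of 5) and smooth muscle markers to 421, 440 and 573 CPM (4 of 4). Endothelial markers summed to 1239, 1174 and 1448 CPM (4 of 6), pericyte markers to 977, 1071 and 1152 CPM (3 of 4) and fibroblast markers to 1119, 1327 and 1347 CPM (3 of 5). Neutrophil markers were lowest there, at 18.1, 12.7 and 7.35 CPM. The sum of neuronal and glial markers was highest in library 2 (17.8, 21.4 and 20.2 CPM). Those of platelet (34.0, 19.4 and 24.0 CPM) and erythroid markers (2223, 1049 and 1698 CPM) were highest in library 1. The part of these cells in the Slc2a3 counts was not tested.

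The hexokinases, which trap glucose in the cell by phosphorylation, are both well represented, and neither took over 75% of the step. Hk2, the insulin-regulated form of muscle, had 346, 359 and 388 CPM, and Hk1, the form of most tissues, had 286, 264 and 270 CPM. Per kilobase of exon union Hk2 exceeded Hk1 by 0.93 ± 0.12 on the log2 scale, with a 95% interval of 0.61 to 1.25 (limma adjusted p = 0.000915 over the 31 pairs). The exon union of Hk1 spans 8532 bases and its principal transcript 3851 bases, and the order of these genes rested on that choice. With the principal transcript the ratio was -0.10, with the longest transcript 0.05 and with the coding sequence 0.46. Which hexokinase had more transcripts was not settled by these counts. Gpi1, whose product interconverts glucose and fructose phosphates, stood at 797, 708 and 741 CPM. Of the 50-base stretches of its principal transcript, 25.3% also occur in transcripts of other annotated genes.

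Pfkm, the muscle phosphofructokinase of the committing step of glycolysis, had 1257, 1164 and 1248 CPM. Pfkl, the liver-type subunit, had 144, 144 and 137 CPM and Pfkp, the platelet-type subunit, 61.3, 66.3 and 68.8 CPM. Pfkm took 93.3 ± 0.355% of the counts per kilobase of this step (88.8% by principal transcript), above Pfkl at 5.41% and Pfkp at 1.25%. Its log2 ratio to Pfkl was 4.11 ± 0.09 and ranged from 3.11 to 4.11 over the length measures. Its ratio to Pfkp was 6.23 ± 0.12 and ranged from 4.23 to 6.23, and 17.1% of the 50-base stretches of the Pfkp transcript also lie in transcripts of its neighbour Pitrm1.

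The PFKFB enzymes make and remove the sugar bisphosphate that activates phosphofructokinase, and no member took as much of this step as Pfkm did of its own. Pfkfb2, the heart isozyme, had 88.9, 84.5 and 101 CPM, and took 62.3 ± 3.59% of the counts per kilobase of the step. Pfkfb3, the inducible isozyme of proliferating and hypoxic cells, had 21.9, 28.9 and 29.5 CPM. The liver and skeletal muscle gene Pfkfb1 had 15.5, 13.3 and 10.1 CPM, and Pfkfb4, known from testis, had 4.42, 4.51 and 3.29 CPM. Pfkfb1 was highest in library 1 and Pfkfb3 in library 3, and their log2 ratio, Pfkfb3 to Pfkfb1, was -0.42, 0.20 and 0.64. Hepatocyte markers were highest in library 1 for 5 of 5 genes (summed level 117, 11.9 and 10.9 CPM), and skeletal muscle markers for 1 of 5 (4470, 3839 and 4060 CPM). The skeletal muscle sum was mostly that 1 gene, Ckm (4213, 3616 and 3786 CPM), which heart muscle also expresses. In libraries 2 and 3 the hepatocyte sum, here and below, was mostly Ahsg, at 11.7 and 9.19 CPM. Alb had 0 and 29 counts there. The part of these cells in the Pfkfb1 counts was not tested. That ratio averaged 0.14 with a 95% interval of -0.46 to 0.74 (limma adjusted p = 0.563 over the 31 pairs). The other 5 pairs of this family passed the threshold, among them Pfkfb2 over Pfkfb3 at 1.84 ± 0.23, which the length measures moved only between 1.78 and 1.87.

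Aldoa, the muscle aldolase, had 3254, 2895 and 2991 CPM and, at 3893 ± 270 TPM by principal transcript, the highest level per length of the 34 genes. By exon union Ldhb was above it, at 4028 TPM against 3128 TPM for Aldoa. With 82371, 76410 and 74522 counts against 16, 2 and 4 for Aldoc it left the brain form at or near the floor of 3 counts in libraries 2 and 3, and no fold is given. Among the single-gene steps, Tpi1 (triosephosphate isomerase) had 1119, 1137 and 1033 CPM, Gapdh 523, 458 and 466 CPM and Pgk1 (phosphoglycerate kinase) 386, 386 and 371 CPM. Gapdh and Pgk1 share sequence with other annotated genes, Gapdh with 222 of them and Pgk1 with 5, mostly Pgk1-rs7. Of the 50-base stretches of their principal transcripts, 82.5% and 68.0% also occur in transcripts of other annotated genes, so reads of these genes could have been split or set aside by the counting, and their levels are uncertain.

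Phosphoglycerate mutase and enolase were each dominated by the muscle gene. Pgam2 stood at 715, 685 and 693 CPM and Pgam1 at 35.7, 39.7 and 36.9 CPM. The log2 ratio of Pgam2 to Pgam1 was 5.46 ± 0.11, a 44.0-fold difference (limma adjusted p = 1.33e-06 over the 31 pairs), and ranged from 4.23 to 5.46 over the length measures. Eno3 stood at 1572, 1412 and 1533 CPM and Eno1 at 147, 148 and 151 CPM. Eno1 was the steadiest of the 33 members tested, with an SD of log2 CPM of 0.0048 between the libraries. Eno3 took 96.9 ± 0.160% of the counts per kilobase of the enolases, or 92.9% by principal transcript. Their log2 ratio, Eno3 to Eno1, was 4.97 ± 0.08 and spanned 3.34 to 4.97 over the length measures. The muscle genes Pgam2 and Eno3 share no 50-base stretch with other genes, whereas 41.5% of the stretches of Pgam1 and 72.2% of those of Eno1 are shared. The closest copy of Eno1 in the table, Eno1b, had 37, 46 and 37 counts against 3722, 3899 and 3753 for Eno1. The part of such copies in the ratios of Pgam2 to Pgam1 and of Eno3 to Eno1 was not tested.

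Eno2 had 1.82, 0.833 and 0.843 CPM, so that Eno3 exceeded it by 11.18, 12.13 and 12.23 on the log2 scale in libraries 1, 2 and 3. Library 1 was highest for Eno2 and for Aldoc. Of the marker lists, erythroid genes were highest in library 1 for 6 of 6 (summed level 2223, 1049 and 1698 CPM in libraries 1, 2 and 3), hepatocyte genes for 5 of 5 (117, 11.9 and 10.9 CPM), macrophage genes for 5 of 6 (440, 380 and 406 CPM) and neutrophil genes for 3 of 4 (18.1, 12.7 and 7.35 CPM). Platelet genes were highest there for 2 of 4 and in library 3 for the other 2 (34.0, 19.4 and 24.0 CPM). Neuronal and glial genes were highest in library 1 for 0 of 5 (17.8, 21.4 and 20.2 CPM). The part of these cells in the Eno2 and Aldoc counts was not tested. Pkm, the muscle pyruvate kinase gene, had 1658, 1547 and 1629 CPM, and counts per gene cannot separate its splice forms. In the copies check 34.4% of its stretches were shared.

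**Figure D3:**
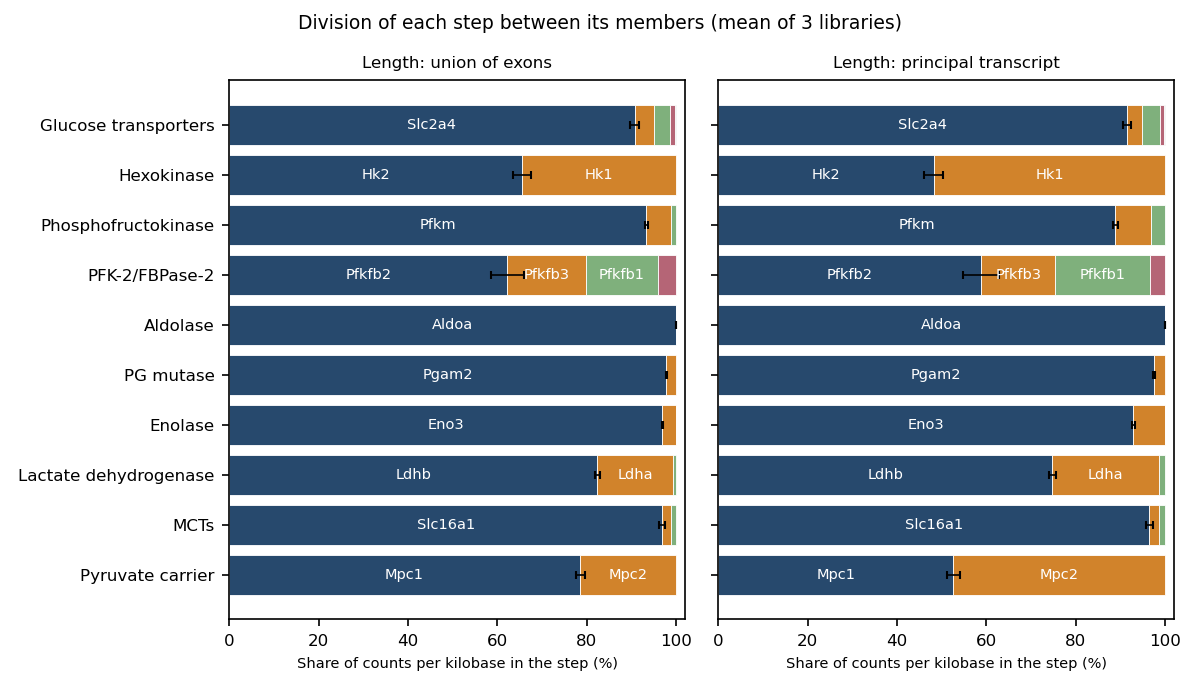
Share of the counts per kilobase of each step (x axis, %) taken by each member, as the mean of 3 libraries, with lengths from the union of exons (left) and from the principal transcript (right). Bars carry the SD of the leading member over the libraries, and the members are stacked in order of their share by exon union. Slc2a4, Aldoa, Pgam2, Eno3 and Slc16a1 lead under both measures, whereas Hk2 and Mpc1 lead clearly only on the left.

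Lactate dehydrogenase had the highest summed level per length of the steps. Ldhb stood at 2169, 2164 and 2020 CPM and Ldha at 976, 893 and 876 CPM. The log2 ratio of Ldhb to Ldha was 2.23, 2.35 and 2.28 in libraries 1, 2 and 3, and its SD of 0.06 was the smallest of the 31 pairs tested. Length moved it more than the libraries did, from 1.32 by coding sequence to 2.29 by exon union, and Ldha still took 16.9 ± 0.613% of the counts per kilobase (23.8% by principal transcript). Between copies, 27.0% of the stretches of Ldhb and 17.1% of those of Ldha were shared with other genes. Ldhd, a mitochondrial enzyme that oxidises the D form of lactate and is no isozyme of the others, had 66.7, 70.5 and 68.6 CPM.

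Lactate and pyruvate cross the plasma membrane through the monocarboxylate transporters. Slc16a1 (MCT1), the form of oxidative muscle and heart, had 229, 254 and 240 CPM and took 96.9 ± 0.647% of the counts per kilobase of the 3 transporters. Slc16a3 (MCT4), the lactate exporter of glycolytic cells, had 8.02, 4.70 and 3.89 CPM, and Slc16a7 (MCT2, a high-affinity form) had 6.72, 7.92 and 10.3 CPM. Slc16a1 exceeded Slc16a3 by 5.10, 6.02 and 6.21 on the log2 scale in libraries 1, 2 and 3. The order of the minor forms turned between libraries, with a log2 ratio of Slc16a3 to Slc16a7 of 1.41, 0.40 and -0.24. Its mean of 0.52 had a 95% interval of -0.35 to 1.40 (limma adjusted p = 0.186 over the 31 pairs). Without library 3 it was 0.91 and passed the threshold (adjusted p = 0.000374), and by coding sequence it was -0.59. Slc16a3 was highest in library 1, as were neutrophil markers, which summed to 18.1, 12.7 and 7.35 CPM in libraries 1, 2 and 3. Of these 4 markers 3 were highest in library 1 and Ly6g had 0 counts throughout. Macrophage markers summed to 440, 380 and 406 CPM, and 5 of 6 were highest in library 1. So were 6 of 6 erythroid, 5 of 5 hepatocyte and 2 of 4 platelet markers, the other 2 platelet markers being highest in library 3. The part of these cells in the Slc16a3 counts was not tested.

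The mitochondrial pyruvate carrier is a pair of different subunits that work together. Mpc1 had 301, 347 and 319 CPM and Mpc2 310, 319 and 304 CPM. Per kilobase of exon union Mpc1 exceeded Mpc2 by 1.87 ± 0.09 on the log2 scale (limma adjusted p = 4.98e-05 over the 31 pairs). The exon union of Mpc2 spans 7344 bases and its principal transcript 1025 bases. By principal transcript the ratio was 0.15 and by coding sequence -0.35, with levels of 649 ± 40.5 TPM for Mpc1 and 585 ± 3.72 TPM for Mpc2 by principal transcript. An excess of one subunit was therefore not settled by these counts, and 44.2% of the stretches of Mpc1 were shared with other genes against none of those of Mpc2.

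Of the 32 pairs of members of the same step, 31 were tested and 28 differed from equal levels (limma moderated test, two-sided, Benjamini-Hochberg adjustment over the 31 pairs, threshold 0.05). Pairs of a step share genes and are not independent of each other. The direction held under all 4 length measures in 26 of the 31 pairs. The 5 others were Slc2a1/Slc2a8, Hk2/Hk1, Pfkfb3/Pfkfb1, Slc16a3/Slc16a7 and Mpc1/Mpc2, and between exon union and principal transcript 13 of the 31 ratios moved by over 1.5 times. In 8 of the 10 steps with several genes the leading gene took over 75% of the counts per kilobase by exon union. By principal transcript 6 of 10 did, and Ldhb (74.8%) and Mpc1 (52.5%) were below. The step of Ldhb includes Ldhd, which is no isozyme of the others and took 1.39% by principal transcript. The place of Ldhb just under 75% depends on counting Ldhd. Pfkm, Aldoa, Pgam2 and Eno3, the muscle genes of their families, led in all 3 libraries.

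**Figure D4:**
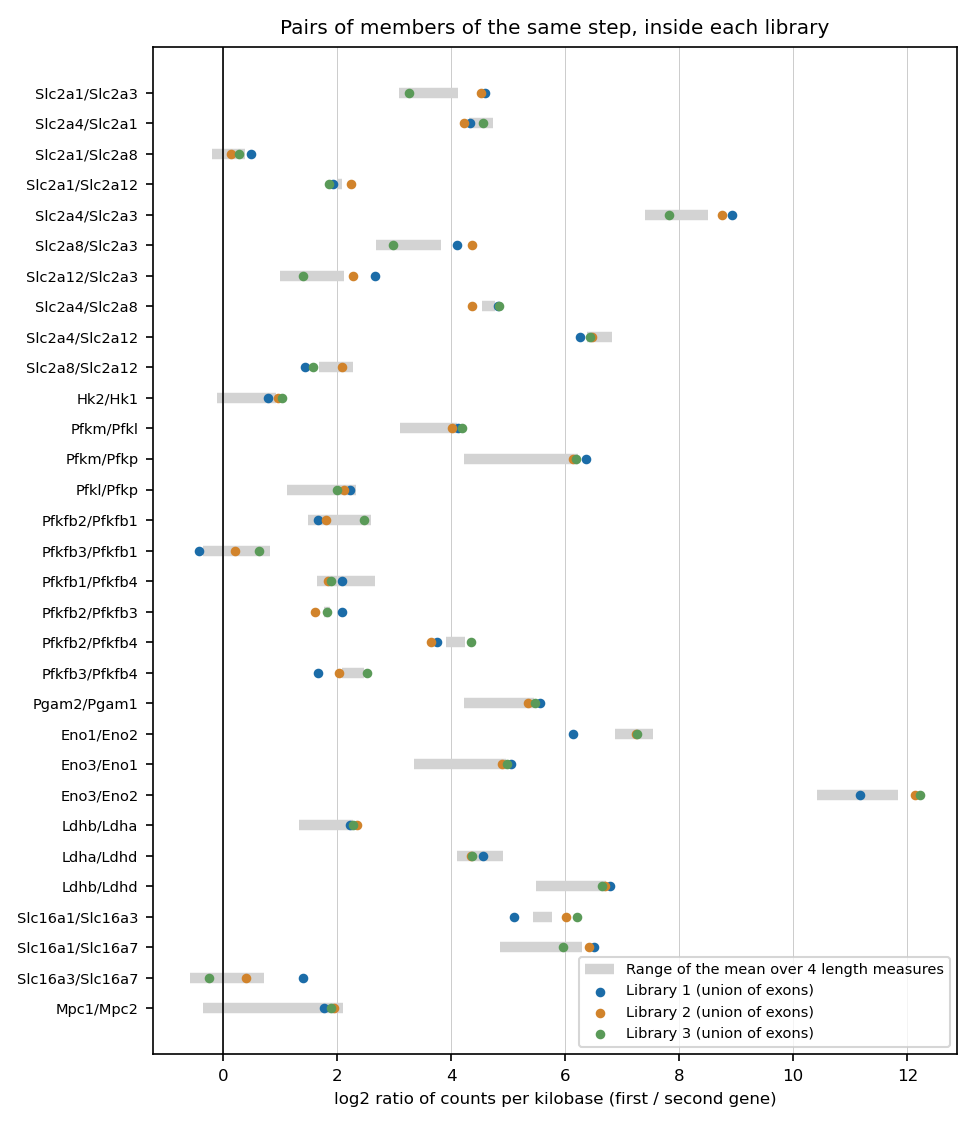
log2 ratio of counts per kilobase between members of the same step (x axis; first gene over second), with one point per library by exon union and a grey bar for the range of the mean over 4 length measures. Most bars lie right of 0, and the bars of Slc2a1/Slc2a8, Hk2/Hk1, Pfkfb3/Pfkfb1, Slc16a3/Slc16a7 and Mpc1/Mpc2 cross it.

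Along the pathway, summed levels per step by principal transcript ranged widely. The lactate dehydrogenases summed to 4191 ± 109 TPM and the aldolases to 3894 ± 270 TPM, followed by the enolases at 2002 ± 143 TPM and the phosphoglycerate mutases at 1643 ± 57.8 TPM. The hexokinases, at 265 ± 13.9 TPM, and the glucose transporters, at 390 ± 28.9 TPM, were among the lower steps, and the phosphofructokinases stood between at 924 ± 53.8 TPM. By exon union the lactate dehydrogenases were at 4893 ± 112 TPM and the hexokinases at 278 ± 16.6 TPM. Some other steps moved by over 1.5 times, among them Gapdh, at 656 TPM by principal transcript and 349 TPM by exon union, the phosphoglycerate mutases, at 1643 and 2537 TPM, and the pyruvate carrier, at 1234 and 589 TPM. The PFKFB family was lowest, at 67.7 ± 3.37 TPM, and the monocarboxylate transporters came next at 109 ± 4.09 TPM. Transcript levels of steps were not tested against each other.

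Spread between the libraries was tested for each gene against the trend of genes of its level. By edgeR, 0 of the 33 members tested were called after adjustment over all 12521 genes tested, against 0.591% of all genes. By the same edgeR fit 1 of 33 had an unadjusted p under 0.05, against 5.39% of all genes. It was Slc16a3 (edgeR adjusted p = 0.754). Both counts are near the share of all genes, so they set the members apart in neither direction. DESeq2's dispersion trend also called 0, with 1 at an unadjusted p under 0.05. The median SD of log2 CPM was 0.09 for the members tested and 0.14 for all genes tested. These medians are not matched for level, so they do not set the members apart. The abundant members Pgam2 (SD 0.04), Pgk1 (0.05), Pkm (0.05) and Pfkm (0.06) were among the steady ones. The members of widest spread were minor isozymes at low levels, Eno2 (SD 0.64), Slc2a3 (0.59), Slc16a3 (0.55) and Pfkfb1 (0.33). In CPM by library total, library 1 gave the highest level for 17 of all 34 members, library 2 for 10 and library 3 for 7. The same count over all genes was not made, so no trait of the members is read from it.

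**Figure D5:**
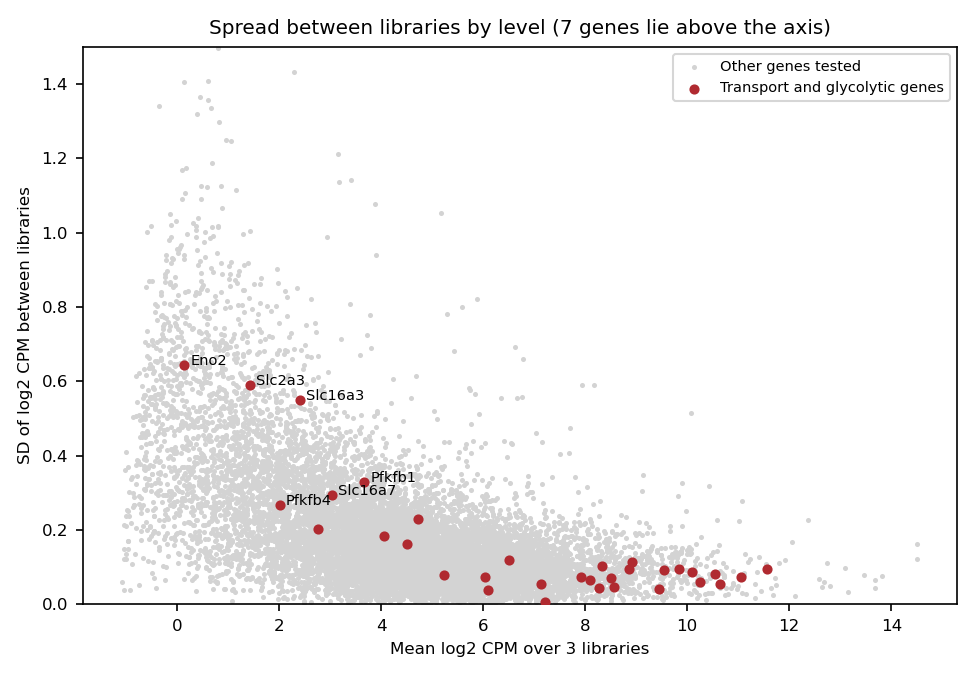
SD of log2 CPM between the 3 libraries (y axis) against mean log2 CPM (x axis) for the 12521 genes tested, with the 33 tested members in red and those above an SD of 0.25 named. The red points of high level lie near the bottom of the cloud, and Eno2, Slc2a3 and Slc16a3 are the highest of them at 0.64, 0.59 and 0.55. Above the axis limit of 1.5 lie 7 genes that are not drawn. Both axes use TMM-scaled library sizes with 0.5 counts added.

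Proteins that handle these transporters were measured as well. All 10 genes of GLUT4 vesicle traffic in the table were detected and 0 were called as differing between the libraries by edgeR, with Rab10 (168 ± 6.94 CPM), the vesicle SNARE Vamp2 (85.4 ± 9.02 CPM) and Tbc1d4 (78.8 ± 2.02 CPM), the insulin-regulated brake on GLUT4 traffic, among them. Among 13 other measured monocarboxylate transporters and chaperones, 9 were detected and 0 were called. Bsg, the chaperone that MCT1 and MCT4 need to reach the membrane, had 1713, 1736 and 1704 CPM, and Nptn had 110 ± 6.81 CPM. Of 8 further sugar transporters in the table only 2 were detected, Slc2a9 (2.57 ± 0.136 CPM) and Slc2a10 (2.31 ± 0.725 CPM), and the sodium-coupled Slc5a1 had 1.18 ± 0.308 CPM. The liver transporter Slc2a2 had 17, 0 and 0 counts in libraries 1, 2 and 3, and hepatocyte markers were highest in library 1 for 5 of 5 genes (summed level 117, 11.9 and 10.9 CPM). Their part in the Slc2a2 counts was not tested.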

How the data were processed

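The deposited table gives counts for each gene symbol as whole numbers, which the authors did not normalize, judging by the values. HISAT2 2.0.4, Bowtie2 2.2.5, RSEM and build GRCm39 are named, per the submitters' processing notes. Their roles are not given in the sources used here, and RSEM estimates counts, so the values may be rounded estimates that divide reads between similar genes.

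CPM is counts per 1000000 of the library total. Means and SDs of log2 CPM instead use TMM-scaled library sizes with 0.5 counts added. Lengths came from GENCODE M21 (GRCm38), matched by symbol for 16078 genes (96.9%). Aldoa, annotated under several gene IDs, took the one with the most transcripts. Pairs were tested with limma 3.58.1 on log2 ratios of counts per kilobase of exon union, after adding 0.5 counts. With 3 libraries the smallest p of an exact sign-flip test is 0.25. Spread between libraries was tested with edgeR 4.0.16 (R 4.3.3; intercept only, TMM, trended dispersion, default filter, deviance against chi-square, Benjamini-Hochberg over all genes) and with DESeq2 1.42.0. Detection meant reaching 1 CPM in all libraries. Stretches of 50 bases were matched exactly, on both strands, to all GENCODE transcripts. Both tests were tested on simulated data. Those counts were drawn from the dispersion trend that the test assumes, and those pairs were drawn independently of each other. The simulations therefore do not check these assumptions. The members and gene lists were chosen with earlier results of these data known. All members are given. From each pathway list the 3 members highest in mean CPM and any that were called are named, and other genes named were chosen after their values were seen. Some genes of these lists are not reported here. Alternatives were other lengths, pseudocounts, normalizations, filters and detection limits, and leaving out each library. The principal transcript and annotated coding lengths were added after the data were seen.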

Additional observations from a re-analysis of the deposited data

How the results depend on the processing

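The count of pairs past the threshold was 28 and stayed between 26 and 29 under the 10 alternatives, 28 to 29 when 1 library was left out. The count of members called as differing between libraries was 0 under all 8 alternatives, 32 or 33 members were detected under all 7, and 6 to 8 steps had a leading share above 75% under the 7 run for it. Pairs that turned in direction were Slc16a3/Slc16a7 at -0.63 with no length correction and -0.59 by coding length, Pfkfb3/Pfkfb1 at -0.36 by principal transcript, Slc2a1/Slc2a8 at -0.19 and Hk2/Hk1 at -0.10 by principal transcript, and Mpc1/Mpc2 at -0.35 by coding length. With 1 library left out Pfkfb3/Pfkfb1 ranged from -0.11, without library 3, to 0.42, without library 1, and the cause was not tested. Of all genes, 74 were called as differing between libraries, 126 with no filter, 131 with a filter of 30 counts, and 17, 51 and 39 without library 1, 2 and 3. Gfpt2 kept its call under the other normalizations and filters (adjusted p 0.00056 to 0.00227). Against a 2-fold ratio 27 pairs passed, and Hk2/Hk1 was lost. The alternative based on RefSeq protein lengths was not run. No paired comparison between groups was possible because the libraries form a single group. Depth limits Aldoc and other genes near the floor of 3 counts. Eno2, at 46, 22 and 21 counts, is above that floor but also low.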

Other observations

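Enzymes that draw sugar phosphates away from glycolysis, or run against it, were also measured. Of 24 such genes, 21 were detected, and 1 of the 21 tested differed between the libraries by edgeR. That gene was Gfpt2, which starts hexosamine synthesis, at 77.9, 48.9 and 41.4 CPM in libraries 1, 2 and 3 (adjusted p = 0.00114 over all genes). It was no longer called without library 1 (adjusted p = 0.999) or without library 3 (adjusted p = 0.0753). Its relative Gfpt1 stood at 21.8, 23.9 and 28.6 CPM and was highest in library 3. The summed level of erythroid markers was also highest in library 1 (2223, 1049 and 1698 CPM). So were those of hepatocyte (117, 11.9 and 10.9 CPM), neutrophil (18.1, 12.7 and 7.35 CPM), macrophage (440, 380 and 406 CPM) and platelet markers (34.0, 19.4 and 24.0 CPM). The part of these cells in the Gfpt2 counts was not tested. Txnip, an inhibitor of glucose uptake, had 1739, 1570 and 1301 CPM (edgeR adjusted p = 0.723). Pgm1 (331 ± 8.67 CPM), which links glucose phosphate to glycogen, and Sord (275 ± 15.1 CPM), which oxidises sorbitol to fructose, were also detected.

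Of 8 further isozymes of these steps that were measured, 4 were detected. Adpgk, which phosphorylates glucose with ADP, had 6.80, 9.13 and 10.9 CPM. The testis forms Ldhc and Eno4 had 0 counts throughout, for a limit of 0.114 to 0.120 CPM, and the liver pyruvate kinase Pklr had 5, 0 and 0 counts.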
